A study of Homo sapiens with 6 samples.

Results

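The genes SRSF1, SRSF2, SRSF3, SRSF4, SRSF5, SRSF6, SRSF7, SRSF9, SRSF10 and SRSF11, which encode serine/arginine-rich (SR) splicing factors, were followed in A549 cells as gene totals and as single transcripts. These 10 genes were taken by symbol from the 34957 genes of the tables, and their 106 transcripts from 180253 transcripts, by a rule that uses no measured value, although the set was chosen with earlier results of these data known. A549 is an established line of human lung adenocarcinoma cells. The cells had been transfected for 48 h with the control siRNA si-ctrl or with si-PLANE.1 or si-PLANE.2, which are siRNAs against the long noncoding RNA PLANE, and 2 short-read RNA-seq libraries were made from each group. PLANE was not analysed here, so the values hold no check of its knockdown. Nothing in the labels says whether the 2 libraries of a group came from separate cultures, and p-values therefore measure the spread between these libraries, which may be technical.

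The deposited values were expected counts, which are estimates of the reads that came from each transcript, and FPKM, which is scaled by transcript length and depth. Expected counts summed to between 10572151 and 20778431 per library. All 10 A549 markers examined stood above the 95th percentile of expressed genes in every library. Both libraries of si-PLANE.2 differed from the other 4 libraries before any SR gene was considered. Replication-dependent histone genes, whose mRNAs carry no poly(A) tail, had a median of 127 and 119 FPKM with si-ctrl, 51.5 and 84.5 FPKM with si-PLANE.1, and 0.09 and 0.2 FPKM with si-PLANE.2, over the 9 of 19 listed histone genes found in the tables. The study's methods name both poly(A) selection and rRNA removal and do not say which libraries received which. In every comparison that uses these libraries, what came from the siRNA and what came from the preparation of the library cannot be told apart.

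SR proteins carry RNA-recognition motifs and a tail rich in serine and arginine. They bind enhancer sequences in exons, help to define splice sites, and in several cases accompany the mRNA out of the nucleus. Many SR genes also contain a poison exon, an alternative exon with an in-frame stop codon. Its inclusion turns the mRNA into a substrate of nonsense-mediated decay (NMD), which degrades mRNAs whose stop codon lies well upstream of an exon junction. SR proteins are known to promote the inclusion of such exons in their own mRNAs. Retained introns are a further known means by which SR genes hold back mRNA from translation.

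Of the 106 transcripts, 99 had a biotype in the annotation used here (GENCODE lifted to GRCh37, the build of the tables). They were 38 coding transcripts, 21 NMD transcripts, 24 retained-intron transcripts and 16 other noncoding transcripts. These 16 have the biotype protein_coding_CDS_not_defined, which means that no coding sequence is annotated for them. They are counted here as noncoding. The remaining 7 had no biotype and were left out of the shares of coding and noncoding transcripts. All 21 NMD transcripts have their annotated stop codon before the last exon junction, at a distance of 95 to 1138 bases. In 10 of the 21, from 6 genes, the exon with the stop does not overlap any exon of the main coding transcript, which is the coding transcript with the highest mean FPKM. Of the 34 coding transcripts with an annotated stop codon, 31 have it in the last exon, and the other 3 are SRSF2 transcripts.

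Below are the stop codons of selected decay transcripts named in the results, with the 27 bases before each along the spliced mRNA. Each gene also has the stop of its main coding transcript, so that both can be compared. In SRSF1 this transcript, ENST00000582730, has 201 codons, fewer than the 248 of the coding transcript ENST00000258962. The most abundant SRSF1 decay transcript, ENST00000581979, has the same stop codon as ENST00000582730. The SRSF10 decay transcript ENST00000495785 is not shown. Capitals mark the stop codon, and the sequences run 5′ to 3′ on the strand of the gene.
SRSF3 decay ENST00000477442: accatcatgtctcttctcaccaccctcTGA
SRSF3 coding ENST00000373715: agtcgatctaggtcaaatgaaaggaaaTAG
SRSF6 decay ENST00000483871: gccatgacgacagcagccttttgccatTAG
SRSF6 coding ENST00000244020: tcaaggtccaggtcgagttccagagatTAA
SRSF4 decay ENST00000605204: ggagaggttcggttcttacaaggaaaaTGA
SRSF4 coding ENST00000373795: tctagatctaggtcccactcaaggtccTAA
SRSF7 decay ENST00000443213: cggcgaagaagaagcaggtatttatttTAA
SRSF7 decay ENST00000425778: aggtttcttcgtttgagtcagtcgcctTGA
SRSF7 coding ENST00000446327: agaagtgcaagtcctgaaagaatggacTGA
SRSF1 decay ENST00000583741: gccttcgttgagttcgaggacccgcggTGA
SRSF1 coding ENST00000582730: tttgaccagaattggatacagtggtctTAA
SRSF2 coding ENST00000359995, shared by 2 decay transcripts: cctgaagaggaaggagcggtgtcctctTAA

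The SRSF3 decay transcript has its stop at chr6:36567629-36567631 on the plus strand, in exon 4 of 7. That exon is a poison exon of 456 bases (chr6:36567598-36568053) that the coding transcript lacks, and the stop lies 548 bases before the last junction. The SRSF6 poison exon is exon 3 of 7 and has 268 bases (chr20:42087793-42088060, plus strand), with the stop at chr20:42087942-42087944, 534 bases before the last junction. The SRSF4 poison exon has 175 bases (chr1:29492402-29492576, minus strand), with the stop 603 bases before the last junction. In SRSF7 the poison exon of ENST00000425778 has 449 bases (chr2:38976040-38976488, minus strand) and its stop lies 697 bases before the last junction. The more abundant SRSF7 decay transcript, ENST00000443213, instead carries an exon of 1127 bases that overlaps exons of the coding transcript, and its stop lies 1138 bases before the last junction. In SRSF1 the decay transcript ENST00000583741 stops within exon 1 of 4, 391 bases before the last junction. SRSF2 differs, since both of its decay transcripts, ENST00000452355 and ENST00000585202, use the normal stop codon at chr17:74732243-74732245 and place exon junctions behind it, the last at 209 and 105 bases. In the main coding transcript of SRSF2 that distance is 7 bases.

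In the si-ctrl libraries gene totals of all 10 genes lay between 41.0 and 126 FPKM. SRSF2, which marks nuclear speckles, had 117 ± 12.1 FPKM (mean ± SD, n = 2). SRSF1, a shuttling SR protein known as an oncoprotein, had 113 ± 15.7 FPKM, and SRSF5 had 110 ± 11.3 FPKM. The ranges of these 3 genes overlapped. SRSF3 at 88.3 ± 9.69 FPKM and SRSF9 at 79.8 ± 6.93 FPKM came next and also overlapped. SRSF11 (65.2 ± 1.83 FPKM) overlapped SRSF6 (59.9 ± 10.7 FPKM), and SRSF10 (47.4 ± 2.45 FPKM), SRSF4 (47.1 ± 8.65 FPKM) and SRSF7 (47.0 ± 6.51 FPKM) closed the order with overlapping ranges. In the si-PLANE.2 libraries the order was SRSF2 at 299.8 ± 7.11 FPKM, SRSF5 at 240.2 ± 7.60 FPKM, SRSF1 at 205 ± 0.57 FPKM, SRSF9 at 158 ± 2.23 FPKM and SRSF7 at 139 ± 4.81 FPKM, with no overlap between neighbours. SRSF7 thus moved to rank 5, from a place among the lowest with si-ctrl that it shared with SRSF10 and SRSF4. The FPKM order depends on the lengths of the transcript models. With si-PLANE.2, 119 and 146 FPKM of SRSF2 lay on ENST00000358156, and 118 and 111 FPKM of SRSF1 on ENST00000258962. Both rest on shorter models than those of the annotation used here, as given below.

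**Figure D1:**
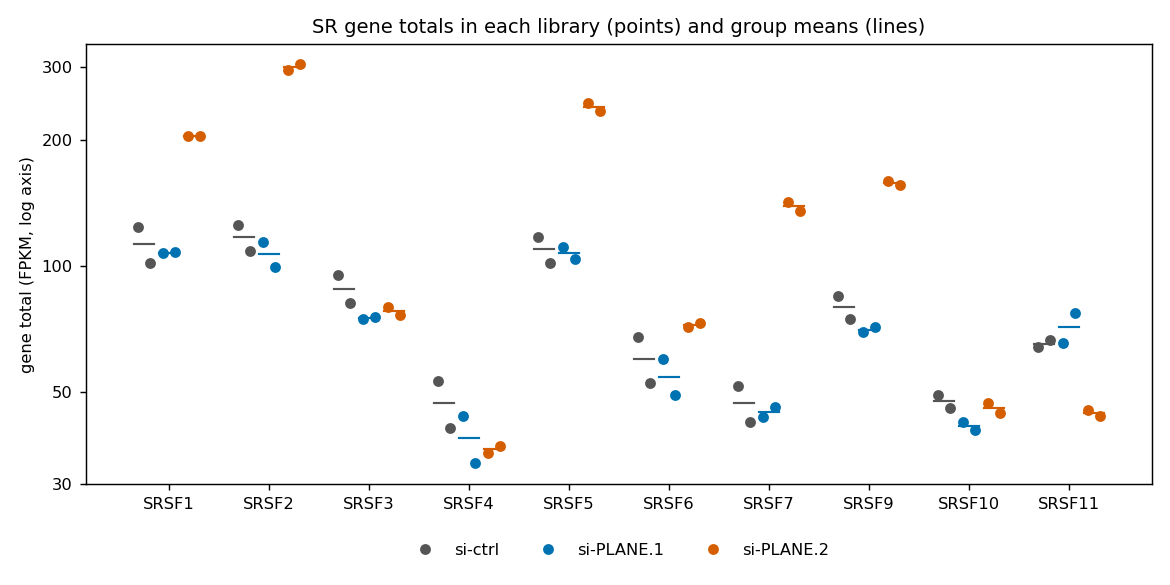
Gene total of each SR gene in FPKM (y axis, logarithmic) in the 6 libraries, with points for libraries, lines for group means and colours for the siRNA. The si-PLANE.1 points lie among or just below the si-ctrl points except for SRSF11, where they reach 77.2 FPKM, whereas the si-PLANE.2 points lie far above them for SRSF1, SRSF2, SRSF5, SRSF7 and SRSF9 and below them for SRSF11.

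With si-PLANE.1 no SR gene total differed from si-ctrl past the threshold. Counts were compared with edgeR's quasi-likelihood test, and an adjusted p (Benjamini-Hochberg, over all genes tested) under 0.05 counted as a call. In this comparison 0 of the 10 SR genes were called, against 0.0344% of the 14535 genes tested, 0 had an unadjusted p under 0.05, and DESeq2 and limma also called 0, against 0.853% and 0.00688% of all genes. The log2 differences in counts ran from -0.32 ± 0.14 (SE) for SRSF3 to 0.02 ± 0.13 for SRSF11, with a median of -0.23, while the median over all genes tested was 0.002. SRSF3 stood at 95.2 and 81.5 FPKM with si-ctrl and at 74.7 and 75.3 FPKM with si-PLANE.1. The FPKM ranges of the groups did not overlap for SRSF3, SRSF9 and SRSF10, which were lower with si-PLANE.1, as was the case for 14.2% of all genes tested. Leaving out si-ctrl 1 brought the median of the 10 genes to -0.07 and leaving out si-ctrl 2 brought it to -0.32.

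With si-PLANE.2, 7 of the 10 gene totals were called, 6 higher and 1 lower, where 64.1% of the 14168 genes tested were called (31.8% higher and 32.3% lower). The share of SR genes called was therefore close to that of all genes. The median log2 difference of the 10 genes was 0.46, against -0.03 for all genes tested. On the scale log2(FPKM + 1), limma called 6 of the 10, 5 of them higher, with a median of 0.57. It called 57.2% of all genes, 21.2% of them higher and 36.0% lower as shares of the genes tested, and on that scale the median of all genes was lower, at -0.22.

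Among the SR proteins with a pair of RNA-recognition motifs, SRSF1, SRSF9 and SRSF5 rose. SRSF1 stood at 124 and 102 FPKM with si-ctrl and at 205 and 204 FPKM with si-PLANE.2, a log2 difference in counts of 0.62 ± 0.12 (edgeR, adjusted p = 0.00284). SRSF9, a factor close in sequence to SRSF1, stood at 84.7 and 74.9 FPKM against 159 and 156 FPKM, a log2 difference of 1.21 ± 0.10 (edgeR, adjusted p = 3.88e-05). Both si-PLANE.2 libraries lay above both si-ctrl libraries for these genes. SRSF5 stood at 118 and 102 FPKM against 246 and 235 FPKM. Much of its FPKM with si-PLANE.2 lay on coding transcripts of 526 and 613 bases, which are given below. Its log2 difference was 0.49 ± 0.12 in counts (edgeR, adjusted p = 0.00878) and 1.13 ± 0.11 on the scale log2(FPKM + 1) (limma, adjusted p = 0.000774). Its call in counts was lost without si-PLANE.2 library 3 (adjusted p = 0.0833, edgeR). SRSF4 and SRSF6 were not called. SRSF6 had 67.5 and 52.4 FPKM with si-ctrl and 71.5 and 72.9 FPKM with si-PLANE.2, a log2 difference of 0.23 ± 0.14 (edgeR, adjusted p = 0.202), which became a call without si-ctrl 1 at 0.45. SRSF4 had 53.2 and 41.0 FPKM with si-ctrl and 35.7 and 37.0 FPKM with si-PLANE.2, so that the FPKM were lower while the log2 difference in counts was 0.19 ± 0.11 (edgeR, adjusted p = 0.177). It too became a call without si-ctrl 1, at 0.28. SRSF9 shares exon sequence with GATC on the opposite strand, and whether counting used strand is not stated, so reads of the overlap cannot be assigned.

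Among the SR proteins with a single RNA-recognition motif, SRSF7 had the largest difference of the 10 genes. SRSF7, which also has a zinc knuckle and acts as an adaptor of mRNA export, stood at 51.6 and 42.4 FPKM with si-ctrl, 43.4 and 45.9 FPKM with si-PLANE.1 and 142 and 136 FPKM with si-PLANE.2. Its log2 difference in counts between si-PLANE.2 and si-ctrl was 1.40 ± 0.11 (edgeR, adjusted p = 3.72e-05), and 1.55 ± 0.13 on the scale log2(FPKM + 1). SRSF2 stood at 126 and 109 FPKM with si-ctrl and at 295 and 305 FPKM with si-PLANE.2. Its log2 difference was 0.89 ± 0.11 in counts (edgeR, adjusted p = 0.000261) and 1.35 ± 0.11 on the scale log2(FPKM + 1). SRSF2 overlaps exons of MFSD11 on the opposite strand and contains MIR636, with the same limit as for SRSF9. SRSF3, like SRSF7 an adaptor of mRNA export, was called higher in counts, at 0.43 ± 0.13 (edgeR, adjusted p = 0.0192), but its FPKM were lower, at 79.9 and 76.3 against 95.2 and 81.5, and the difference on the scale log2(FPKM + 1) was -0.17 (limma, adjusted p = 0.251). The direction of SRSF3 therefore differed between the fit of counts and the fit of FPKM, and its call in counts was lost without either si-PLANE.2 library.

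SRSF10, which represses splicing when it is dephosphorylated, was not called, at 49.1 and 45.7 FPKM with si-ctrl and 47.1 and 44.5 FPKM with si-PLANE.2 (log2 difference in counts 0.09 ± 0.11; edgeR, adjusted p = 0.487). SRSF11 was the only 1 of the 10 genes called lower, at 63.9 and 66.5 FPKM with si-ctrl and 45.2 and 43.7 FPKM with si-PLANE.2, and fell by 0.41 ± 0.10 on the log2 scale in counts (edgeR, adjusted p = 0.00993). Without si-PLANE.2 library 4 the value was -0.32 and no longer a call. FPKM ranges did not overlap for 6 genes higher with si-PLANE.2 (SRSF1, SRSF2, SRSF5, SRSF6, SRSF7 and SRSF9; 30.9% of all genes) and for 3 genes lower (SRSF3, SRSF4 and SRSF11; 49.7% of all genes).

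**Figure D2:**
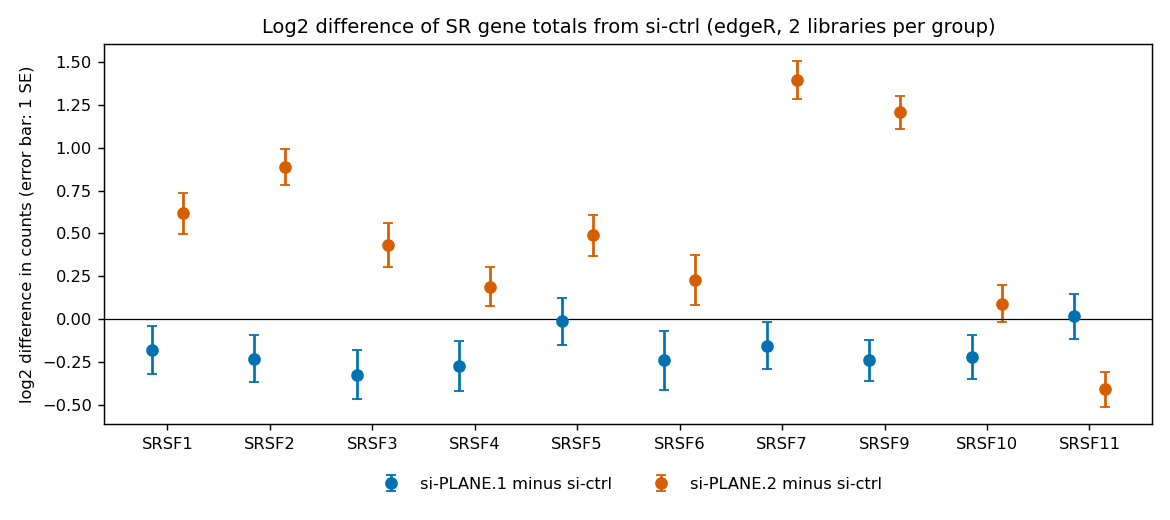
Log2 difference in counts of each SR gene total from si-ctrl (y axis) for si-PLANE.1 and si-PLANE.2, with error bars of 1 SE from edgeR and 2 libraries per group. The si-PLANE.1 values lie between -0.32 and 0.02, and the si-PLANE.2 values reach 1.40 for SRSF7 and -0.41 for SRSF11.

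Noncoding transcripts made up a large share of the FPKM of the SR genes already in the control cells. The share was computed per library as the FPKM of NMD, retained-intron and other noncoding transcripts in percent of the FPKM of all transcripts with a biotype. In the si-ctrl libraries it ranged from 19.7 ± 4.02% for SRSF9 to 69.4 ± 5.01% for SRSF3 and 69.8 ± 11.1% for SRSF11 (mean ± SD, n = 2). The SRSF11 value leaves out the 47.2% and 44.4% of its FPKM that lay on transcripts without a biotype. In counts, which are not scaled by length, the share with si-ctrl was 30.7% and 39.4% for SRSF3. It was 19.1% and 26.2% for SRSF9 and 15.7% and 11.8% for SRSF4. In both si-ctrl libraries the share was lower in counts than in FPKM for SRSF1, SRSF2, SRSF3, SRSF4, SRSF6 and SRSF10. It was higher in both for SRSF5, SRSF7 and SRSF9. Summed over the 10 genes, coding transcripts carried 60.9% and 54.5% of the FPKM with si-ctrl, NMD transcripts 18.6% and 24.0%, and retained-intron transcripts 16.5% and 17.7%. Over all genes of the tables the same classes carried 81.2% and 81.6%, 3.11% and 2.71%, and 8.70% and 8.91%. The composition differed among the members. NMD transcripts were the main noncoding class of SRSF3 (55.4% and 53.6% of its FPKM), SRSF7 (50.1% and 43.8%), SRSF1 (25.3% and 37.5%) and SRSF6 (27.8% and 39.2%). Retained-intron transcripts were the main noncoding class of SRSF4 (47.7% and 42.5%), SRSF5 (24.1% and 37.3%) and SRSF9 (16.8% and 22.5%). In SRSF10 (28.4% and 25.6%) and SRSF11 (23.3% and 17.3%) it was the other noncoding class, without an annotated coding sequence. The retained-intron FPKM of SRSF4 lay on a transcript of 516 bases, ENST00000497015. It had 91.6 and 65.5 counts with si-ctrl, against 638 and 618 for the main coding transcript.

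**Figure D3:**
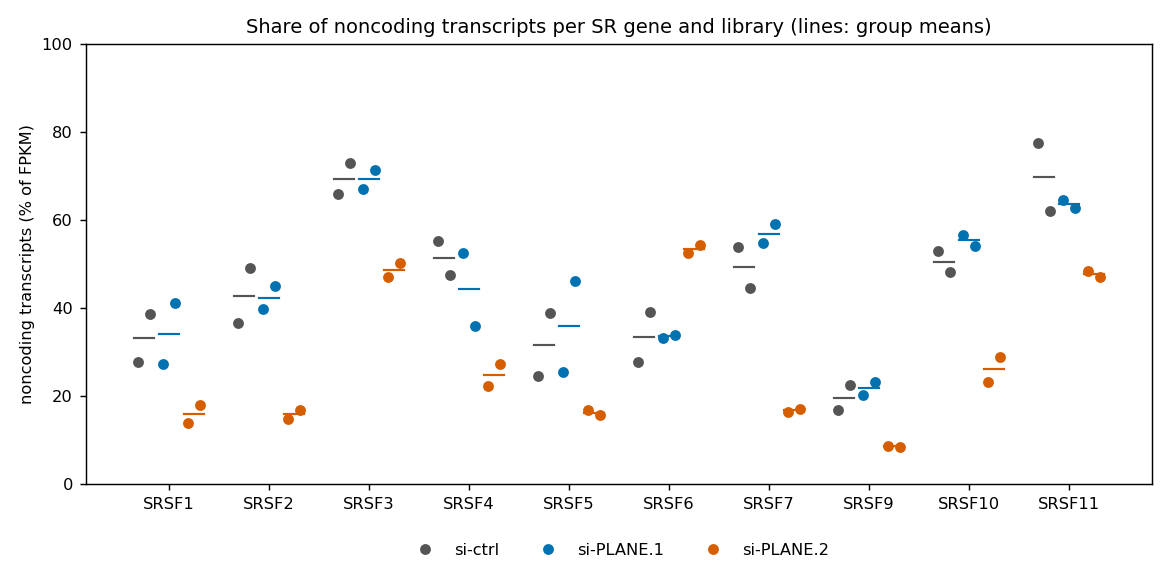
Noncoding transcripts in percent of the FPKM of each SR gene (y axis, linear) in the 6 libraries, with lines for group means. With si-PLANE.2 the points lie below those of both other groups for 9 genes and above them for SRSF6, at 52.5% and 54.3%.

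With si-PLANE.1 the split between coding and noncoding transcripts was not called different for any of the 10 genes. The split was tested in counts as the log2 difference of the ratio of noncoding to coding transcripts (edgeR, diffSpliceDGE). Here 0 of 10 genes were called against 0.0125% of the 7999 genes tested, 0 had an unadjusted p under 0.05, and voom with diffSplice called 0. The values ran from -0.69 ± 0.37 for SRSF4 to 0.40 ± 0.28 for SRSF7, with a median of 0.06 against 0.08 for all genes tested. The percent ranges did not overlap for SRSF7 (53.9% and 44.7% in si-ctrl, 54.8% and 59.1% in si-PLANE.1) and SRSF10 (53.0% and 48.2%, then 56.6% and 54.2%), which were higher with si-PLANE.1, as were 19.4% of all genes tested. Leaving out 1 library reversed the sign of the value for 7 of the 10 genes.

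With si-PLANE.2 the ratio of noncoding to coding transcripts was called lower for 8 SR genes and higher for SRSF6, that is for 9 of 10, against 46.1% of the 7776 genes tested (36.5% lower and 9.57% higher). The median log2 difference of the ratio was -1.25 for the 10 genes and -0.91 for all genes tested, so the lower ratio of the SR genes went along with a lower ratio across the whole table. Over all genes the coding transcripts carried 88.0% and 87.6% of the FPKM with si-PLANE.2, and over the 10 SR genes they carried 80.0% and 78.5%. SRSF7 went from 53.9% and 44.7% noncoding in si-ctrl to 16.5% and 17.2% in si-PLANE.2, a log2 difference of the ratio of -2.01 ± 0.22 (edgeR, adjusted p = 0.000211). SRSF4 went from 55.3% and 47.6% to 22.3% and 27.3%, with -2.01 ± 0.37 (edgeR, adjusted p = 0.00302). In counts the SRSF4 share went from 15.7% and 11.8% to 4.24% and 3.35%. The FPKM with si-PLANE.2 include 3.56 and 8.58 FPKM of a retained-intron transcript of 206 bases, ENST00000477193, with 1 and 2 counts, and the call was lost when transcripts without a biotype were classed as noncoding (-1.57; edgeR, adjusted p = 0.0536). SRSF11 went from 77.6% and 62.0% to 48.5% and 47.0%, with -1.99 ± 0.30 (edgeR, adjusted p = 0.00118). SRSF1 went from 27.8% and 38.7% to 14.0% and 18.0%, with -1.74 ± 0.27 (edgeR, adjusted p = 0.00125). In each of these 4 genes both si-PLANE.2 libraries lay below both si-ctrl libraries.

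SRSF9 (-1.28 ± 0.25), SRSF3 (-1.21 ± 0.25), SRSF10 (-1.09 ± 0.24) and SRSF2 (-0.96 ± 0.25) were also called lower, with adjusted p of 0.00364, 0.00497, 0.00674 and 0.0140 from edgeR. The calls of SRSF2 and SRSF10 were lost without si-PLANE.2 library 3, at adjusted p of 0.111 and 0.0824 (edgeR), and that of SRSF2 also without library 4, at 0.0521. SRSF5 had a value of -1.22 ± 0.44 and just missed the threshold (edgeR, adjusted p = 0.0508), which it passed with voom and diffSplice (adjusted p = 0.0286) and without si-ctrl 1 at -2.06. SRSF6 went the other way, from 27.8% and 39.2% noncoding in si-ctrl to 52.5% and 54.3% in si-PLANE.2, and its log2 difference was 1.24 ± 0.27 (edgeR, adjusted p = 0.00598). The percent ranges of si-ctrl and si-PLANE.2 did not overlap for any of the 10 genes, 9 lower and 1 higher, where 51.2% of all genes tested were lower and 19.1% higher without overlap.

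The change of the split was not the same for the NMD and the retained-intron class. With NMD transcripts alone set against coding transcripts, 5 of the 9 SR genes tested were called, against 29.2% of the 2684 genes tested (11.9% higher and 17.3% lower). SRSF1, SRSF3, SRSF7 and SRSF10 were lower and SRSF6 was higher. With retained-intron transcripts alone, 8 of 9 SR genes were called against 54.1% of 5075 genes (6.52% higher and 47.6% lower). SRSF1 was the 1 called higher. Its only retained-intron transcript had 2.46 and 0 counts with si-ctrl. SRSF1 therefore passed the minimum FPKM for that class only through the si-PLANE.2 libraries, which fixed its direction in advance. Retained-intron transcripts of SRSF2 fell from 25.5% and 15.0% of the gene's FPKM to 1.64% and 1.76%, with a log2 difference of the ratio to coding transcripts of -3.26 ± 0.40 (edgeR, adjusted p = 0.000295). Those of SRSF4 went from 47.7% and 42.5% to 16.2% and 23.2%, with -4.01 ± 0.66 in counts (edgeR, adjusted p = 0.00127).

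**Figure D4:**
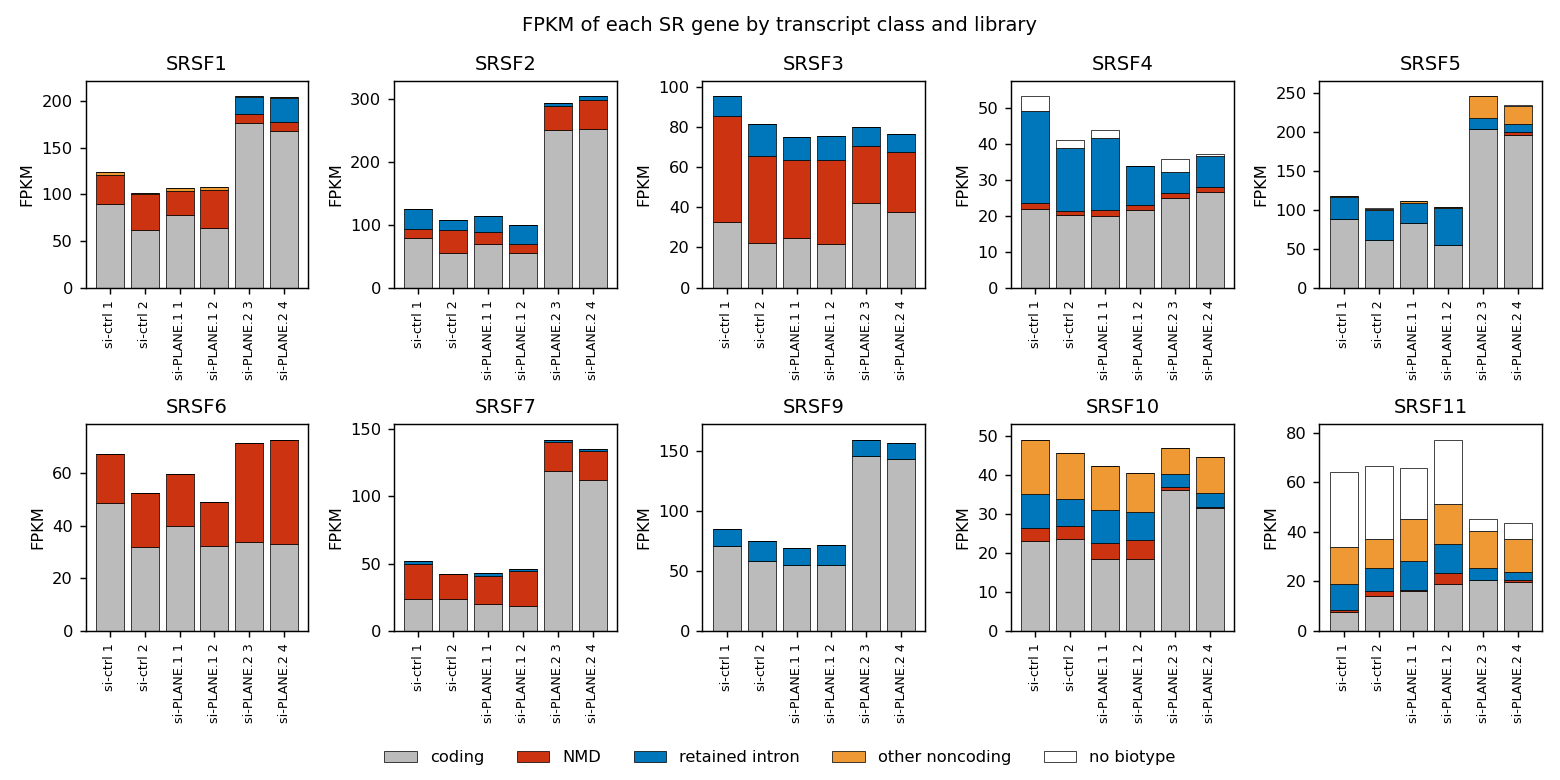
FPKM of each SR gene (y axis, linear, 1 panel per gene) in the 6 libraries, stacked by transcript class. In the si-PLANE.2 bars the coding part is taller than with si-ctrl for every gene but SRSF6, whose NMD part is taller instead.

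At the level of single transcripts, 0 of the 76 SR transcripts tested were called with si-PLANE.1 by edgeR, as were 0.0% of the 57625 transcripts tested. An unadjusted p under 0.05 was reached by 3 of these 76 SR transcripts and by 2552 of the 57625 transcripts tested. Among the SR transcripts limma called 0, and DESeq2 called 1, where it called 0.677% of all transcripts. It was the coding SRSF10 transcript ENST00000492112, which had 1.65 and 5.95 FPKM with si-ctrl and was listed at 0 in both si-PLANE.1 libraries. Its counts with si-ctrl were 31.0 and 117. It has 1631 bases in the tables and 7656 bases in the annotation used here, so its FPKM rest on a shorter model. With si-PLANE.2, 28 of 83 SR transcripts were called, 23 higher and 5 lower, against 25.6% of 56791 transcripts (12.9% higher and 12.7% lower). Of the 34 coding transcripts tested 17 were called, all higher, against 5108 higher and 3640 lower of 29730 over all genes. Of the 13 NMD transcripts 2 were called higher and 1 lower, against 367 and 381 of 3574 over all genes. Of 19 retained-intron transcripts 2 were called in each direction, against 474 higher and 1520 lower of 10275. Without either si-PLANE.2 library the number of SR transcripts called was 0, and it was then also 0 among all transcripts. The called transcripts that were higher had a median length of 1201 bases and the lower ones 1518 bases, and over all genes these lengths were 1564 and 2118 bases.

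In SRSF1 the main coding transcript was not called, while other coding transcripts rose. ENST00000582730 had 64.0 and 46.3 FPKM with si-ctrl and 49.5 and 41.3 FPKM with si-PLANE.2, a log2 difference in counts of 0.01 ± 0.20. The coding transcript ENST00000258962 had 23.7 and 14.9 FPKM with si-ctrl, 22.9 and 12.5 FPKM with si-PLANE.1 and 118 and 111 FPKM with si-PLANE.2, a log2 difference from si-ctrl of 2.86 ± 0.26 (edgeR, adjusted p = 0.00932). ENST00000258962 has 1513 bases in the tables and 5343 bases in the annotation used here, so its FPKM rest on a shorter model. Its coding sequence has 248 codons, against 201 for ENST00000582730. The coding transcript ENST00000584773 also rose, by 3.54 ± 0.48 (edgeR, adjusted p = 0.0167). The decay transcript ENST00000583741, whose stop lies in exon 1, had 16.4 and 11.8 FPKM with si-ctrl and 1.88 and 1.18 FPKM with si-PLANE.2, and fell by 2.89 ± 0.40 on the log2 scale (edgeR, adjusted p = 0.0173). The decay transcript ENST00000581979, which shares its stop codon with ENST00000582730, had 13.6 and 25.9 FPKM with si-ctrl and 5.82 and 6.55 FPKM with si-PLANE.2 without a call (edgeR, adjusted p = 0.0650). The remaining, rarer decay transcript, ENST00000584668, had 1.32 and 0.39 FPKM with si-ctrl and 2.23 and 2.65 FPKM with si-PLANE.2 and was not called (edgeR, adjusted p = 0.167). SRSF1 exons are shared with an unnamed protein-coding gene on the same strand, ENSG00000266086, and a further gene on the opposite strand, so reads there may be split. A retained-intron transcript, ENST00000578430, had 0.41 and 0 FPKM with si-ctrl and 17.6 and 25.7 FPKM with si-PLANE.2, at least 44.9-fold higher against a floor of 3 counts per library. In SRSF9 the main coding transcript ENST00000229390 rose, with 68.4 and 56.1 FPKM with si-ctrl and 145 and 143 FPKM with si-PLANE.2 (log2 difference 1.51 ± 0.14; edgeR, adjusted p = 0.00923). Of its retained-intron transcripts, the most abundant, ENST00000548792, had 7.09 and 9.88 FPKM with si-ctrl and 2.84 and 2.74 FPKM with si-PLANE.2 and was not called (log2 difference -1.30 ± 0.34; edgeR, adjusted p = 0.0602). ENST00000548326 went the other way, from 2.58 and 3.08 FPKM to 7.98 and 6.85 FPKM, by 1.68 ± 0.30 (edgeR, adjusted p = 0.0283), a call that was lost without si-ctrl 1 (edgeR, adjusted p = 0.0589).

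SRSF2 had coding transcripts that were seen with si-PLANE.2 alone. ENST00000358156 was listed at 0 in all 4 libraries of si-ctrl and si-PLANE.1 and at 119 and 146 FPKM with si-PLANE.2, at least 204-fold above the floor of 3 counts. It has 572 bases in the tables and 1867 bases in the annotation used here, so its FPKM rest on a shorter model. ENST00000583836 (25.5 and 5.38 FPKM) and ENST00000508921 (1.01 and 1.50 FPKM) were likewise at 0 in both si-ctrl libraries and called higher. ENST00000508921 also had 0.28 FPKM in si-PLANE.1 library 2. ENST00000583836 has no annotated stop codon, and its counts with si-PLANE.2 were 174 and 32.1. The main coding transcript ENST00000359995 had 66.8 and 45.3 FPKM with si-ctrl and 93.3 and 86.7 FPKM with si-PLANE.2, a log2 difference of 0.97 ± 0.21 in counts (edgeR, adjusted p = 0.0416), which limma did not call on the scale log2(FPKM + 1) (adjusted p = 0.0721). The decay transcript ENST00000585202 rose with it, from 5.90 and 12.3 FPKM to 29.7 and 32.8 FPKM, by 2.07 ± 0.41 (edgeR, adjusted p = 0.0342). The other decay transcript, ENST00000452355, had 8.09 and 24.7 FPKM against 9.46 and 13.5 FPKM and was not called. The retained-intron transcript ENST00000582449 fell by 2.17 ± 0.31 on the log2 scale, from 20.9 and 14.0 FPKM to 3.36 and 2.94 FPKM (edgeR, adjusted p = 0.0179).

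SRSF3 and SRSF6 each have 1 coding and 1 decay transcript, and the balance between them moved in opposite directions with si-PLANE.2. The SRSF3 transcript with the poison exon, ENST00000477442, had 52.7 and 43.6 FPKM with si-ctrl, 38.8 and 41.8 FPKM with si-PLANE.1 and 28.2 and 29.8 FPKM with si-PLANE.2. The coding transcript ENST00000373715 had 32.5 and 22.0 FPKM with si-ctrl, 24.6 and 21.5 FPKM with si-PLANE.1 and 42.3 and 37.9 FPKM with si-PLANE.2. The decay transcript was thus above the coding transcript in all 4 libraries of si-ctrl and si-PLANE.1 and below it in both si-PLANE.2 libraries. Neither transcript was called on its own, at log2 differences in counts of -0.43 ± 0.15 and 0.84 ± 0.22 (edgeR, adjusted p = 0.114 and 0.0579), while their ratio was, at -1.27 ± 0.27 (edgeR, adjusted p = 0.0130).

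The SRSF6 transcript with the poison exon, ENST00000483871, had 18.7 and 20.5 FPKM with si-ctrl, 19.9 and 16.6 FPKM with si-PLANE.1 and 37.5 and 39.6 FPKM with si-PLANE.2. It rose by 1.27 ± 0.13 on the log2 scale in counts (edgeR, adjusted p = 0.0111). The coding transcript ENST00000244020 had 48.8 and 31.9 FPKM with si-ctrl and 34.0 and 33.3 FPKM with si-PLANE.2, a log2 difference of 0.02 ± 0.22. The si-PLANE.2 values of the coding transcript lay within the range of si-ctrl, whereas those of the decay transcript lay above it. SRSF6 shares exon sequence with an unnamed protein-coding gene on the same strand, ENSG00000288000, so reads of the shared exons may be split between the genes.

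In SRSF7 coding transcripts rose while the decay transcripts were not called. ENST00000443213 had 22.8 and 16.8 FPKM with si-ctrl, 18.9 and 24.1 FPKM with si-PLANE.1 and 18.7 and 18.4 FPKM with si-PLANE.2, a log2 difference of 0.20 ± 0.19 (edgeR, adjusted p = 0.470). ENST00000425778, with the poison exon of 449 bases, had 2 and 1.59 FPKM with si-ctrl and 2.09 and 1.78 FPKM with si-PLANE.2. Of the coding transcripts, ENST00000409276 went from 4.97 and 6.16 FPKM to 57.1 and 50.8 FPKM, by 3.58 ± 0.22 (edgeR, adjusted p = 0.00658). ENST00000446327 went from 12.8 and 10.7 FPKM to 48.4 and 48.5 FPKM, by 2.35 ± 0.16 (edgeR, adjusted p = 0.00713). ENST00000446327 has 1169 bases in the tables and 2453 bases in the annotation, with the same limit on its FPKM. ENST00000313117 rose by 1.34 ± 0.17 (edgeR, adjusted p = 0.0149). In SRSF4 the transcript with the poison exon, ENST00000605204, had 1.76 and 1.03 FPKM with si-ctrl and 1.40 and 1.44 FPKM with si-PLANE.2, and the main coding transcript ENST00000373795 had 21.9 and 20.3 FPKM against 23.4 and 21.6 FPKM, neither of them called. The SRSF4 retained-intron transcript ENST00000497015 had 25.4 and 17.4 FPKM with si-ctrl, 8.15 and 10.7 FPKM with si-PLANE.1 and 2.21 and 0 FPKM with si-PLANE.2, without a call in either comparison, and a coding transcript at 0 in si-ctrl, ENST00000466448 (1.61 and 4.99 FPKM), was called higher.

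**Figure D5:**
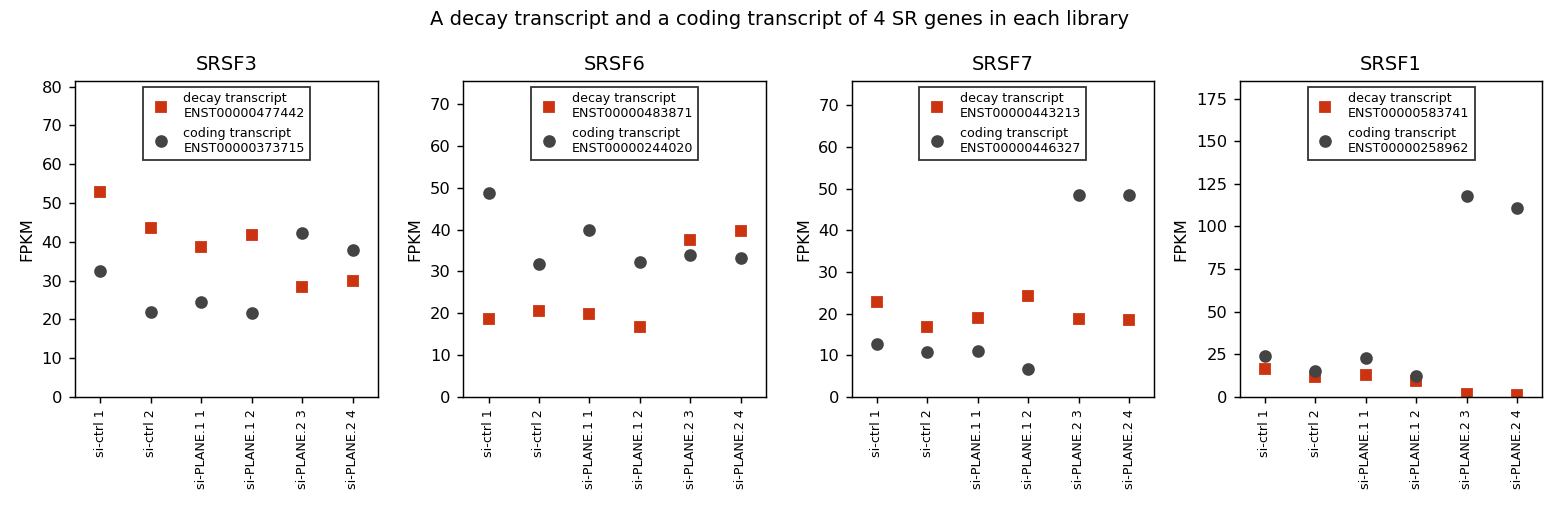
FPKM (y axis, linear) of a decay transcript (red squares) and a coding transcript (dark grey circles) of SRSF3, SRSF6, SRSF7 and SRSF1 in each of the 6 libraries. For SRSF1 these are ENST00000583741 and ENST00000258962, neither of them the most abundant of its class. The most abundant SRSF1 decay transcript, ENST00000581979, is not drawn. It stood above ENST00000258962 in si-ctrl 2 (25.9 against 14.95 FPKM) and si-PLANE.1 2 (30.4 against 12.5 FPKM), but not in si-ctrl 1 or si-PLANE.1 1. With si-PLANE.2 the coding transcript stands above the decay transcript in SRSF3, SRSF7 and SRSF1, at 48.4 FPKM or more in the latter pair of genes, and below it in SRSF6, the reverse of the other libraries except in SRSF1.

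SRSF5 varied between libraries of the same group in its main coding transcript. ENST00000557154 had 75.2 and 25.4 FPKM with si-ctrl, 66.9 and 32.2 FPKM with si-PLANE.1 and 39.8 and 26.6 FPKM with si-PLANE.2, and the main retained-intron transcript ENST00000556184 had 14.2 and 23.6 FPKM, 14.5 and 34.4 FPKM, and 9.21 and 6.52 FPKM. Neither was called. Short transcripts of the gene were seen mainly with si-PLANE.2. ENST00000553369, a coding transcript of 613 bases without an annotated stop codon, had 0.56 and 0 FPKM with si-ctrl. With si-PLANE.2 it had 50.3 and 91.3 FPKM, at least 122-fold above the floor. ENST00000553548, a coding transcript of 526 bases, had 0 and 22.5 FPKM with si-ctrl and 0.83 and 15.25 FPKM with si-PLANE.1. It had 75.8 and 38.5 FPKM with si-PLANE.2, without a call. ENST00000556647, of 644 bases and the other noncoding class, was at 0 in si-ctrl and at 25.1 and 20.5 FPKM with si-PLANE.2, at least 42.6-fold above the floor. The coding transcripts ENST00000394366 and ENST00000553635 rose by 2.73 ± 0.25 and 1.39 ± 0.18 on the log2 scale (edgeR, adjusted p = 0.00923 and 0.0159), and ENST00000555349 (2.06 and 2.65 FPKM with si-PLANE.2) was called higher from 0 in si-ctrl.

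In SRSF10 and SRSF11 the counts were spread over many transcripts. In SRSF10 the main coding transcript ENST00000453840 had 14.3 and 11.2 FPKM with si-ctrl and 8.12 and 6.21 FPKM with si-PLANE.2, without a call, and 2 coding transcripts at 0 in si-ctrl were called higher, ENST00000484146 (11.2 and 9.32 FPKM) and ENST00000374452 (0.69 and 1.35 FPKM). The decay transcript ENST00000495785 had 3.19 and 3.39 FPKM against 0.97 and 0.29 FPKM (edgeR, adjusted p = 0.113), and the retained-intron transcript ENST00000485841 had 7.94 and 6.04 FPKM against 3.32 and 3.54 FPKM (edgeR, adjusted p = 0.0722). In SRSF11 the most abundant transcript, ENST00000405432, had no biotype in the annotation used here. It had 29.9 and 29.0 FPKM with si-ctrl, 19.6 and 24.9 FPKM with si-PLANE.1 and 4.33 and 4.20 FPKM with si-PLANE.2, and fell by 2.49 ± 0.18 on the log2 scale against si-ctrl (edgeR, adjusted p = 0.00713). The main coding transcript ENST00000395136 had 3.04 and 8.03 FPKM against 6.17 and 6.96 FPKM and was not called. The retained-intron transcript ENST00000484162 fell by 1.07 ± 0.24 (edgeR, adjusted p = 0.0444), from 10.5 and 9.43 FPKM to 4.56 and 3.22 FPKM, but was no longer called without any 1 of the 4 libraries or without the filter on low values (edgeR, adjusted p = 0.0574). ENST00000463877, of the other noncoding class, rose by 3.21 ± 0.59 (edgeR, adjusted p = 0.0291). Without si-ctrl 2 its value was 2.81 and no longer a call. ENST00000460795, also of that class, had 4.40 and 2.44 FPKM with si-ctrl, was at 0 in si-PLANE.2 and was called lower.

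The siRNAs were also compared with each other, in a fit of all 6 libraries. In this comparison all 10 gene totals were called, 9 higher with si-PLANE.2 and SRSF11 lower, against 64.4% of the 14440 genes tested (31.1% higher and 33.4% lower). The ratio of noncoding to coding transcripts was called for all 10 genes as well, lower with si-PLANE.2 for 9 and higher for SRSF6, against 47.8% of the 8000 genes tested (8.9% higher and 38.9% lower).

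The partners of the SR genes were described from 4 lists. With si-PLANE.1 edgeR called 0 genes of each list. With a replicate block it called 6 of 13 NMD and exon junction factors (5 higher and 1 lower) and 2 of 6 NMD targets (ATF4 and GADD45B, both higher). In that fit it called 1225 of the 14535 genes tested. Among 13 SR-related proteins tested, 1 had an unadjusted p under 0.05 and the largest value was that of SRSF12, at 0.41 ± 0.38 on the log2 scale. Among 10 SR kinases and transport factors, 0 reached that level, and CLK2, a kinase of SR proteins, had the largest value at -0.29 ± 0.17. Among 13 NMD and exon junction factors, 7 had an unadjusted p under 0.05, DESeq2 called SMG5 and UPF2 higher, and SMG5 had 0.66 ± 0.15 in edgeR (adjusted p = 0.288). Among 6 known NMD targets, 2 had an unadjusted p under 0.05, DESeq2 called ATF4 higher, and the largest value was that of GADD45A at -0.54 ± 0.22. DESeq2 called 0 genes of the first 2 lists and limma 0 of all 4, against 0.853% and 0.00688% of all genes. The share of all genes with an unadjusted p under 0.05 is not given here.

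With si-PLANE.2, where 31.8% of all genes were called higher and 32.3% lower, 2 of the 13 SR-related proteins were called higher and 8 lower, with a median log2 difference of -0.52, against -0.03 for all genes. SRRM1 (-1.52 ± 0.10), SCAF11 (-1.45 ± 0.09), SCAF8 (-1.11 ± 0.10) and SRRM2 (-0.97 ± 0.12) fell, of which SRRM1 and SRRM2 are coactivators of splicing in nuclear speckles. Of 10 kinases and transport factors, 1 was called higher and 6 lower, so that 7 of 10 stood against 64.1% of all genes. DYRK1A (-1.37 ± 0.11), CLK1 (-0.80 ± 0.29), CLK4 (-0.75 ± 0.16) and CLK3 (-0.61 ± 0.18), kinases that phosphorylate splicing factors, fell. Without either si-PLANE.2 library fewer genes of this list were called, and fewer of all genes as well. Of 13 NMD and exon junction factors, 8 were called higher and 3 lower, against 31.8% and 32.3% of all genes. The exon junction proteins MAGOH (1.99 ± 0.21) and EIF4A3 (1.68 ± 0.10) and the NMD factor UPF3A (1.27 ± 0.13) rose, and SMG1, the kinase that phosphorylates UPF1, fell by 1.14 ± 0.11. Fewer of this list were called without si-PLANE.2 library 3, as was the case among all genes. Of 6 NMD targets, 4 were called higher and 1 lower, against the same 31.8% and 32.3%, among them ATF3 (1.62 ± 0.21), GADD45A (1.49 ± 0.15), UPP1 (1.09 ± 0.12) and GADD45B (-0.69 ± 0.22).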

How the data were processed

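Short-read RNA-seq of A549 cells 48 h after transfection was read from 2 deposited tables that share the si-ctrl libraries. The authors deposited expected counts per transcript, without normalization, and FPKM, which they had scaled for transcript length and depth. The submitters' processing notes name Trimmomatic 0.30, HISAT2 2.0.1, HTSeq 0.6.1, DESeq and hg19, with no role, and the tool that made the expected counts is not given in the sources used here. Gene totals are sums over the transcripts of a gene. The 16723 transcripts without a gene identifier, which carried 3.03% to 3.62% of the counts, were left out of them.

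Counts were rounded and compared with edgeR 4.0.16 (TMM, quasi-likelihood) in R 4.3.3, per siRNA, for features with a mean of at least 0.5 FPKM, with Benjamini-Hochberg adjustment over all features tested and an adjusted p of 0.05 as the threshold. Standard errors were obtained from the log2 difference and the F statistic. Coding and noncoding transcripts were summed per gene and compared with diffSpliceDGE. Biotypes and stop codons came from the GENCODE annotation lifted to GRCh37, in which 85 of the 106 SR transcripts have the length given in the tables. The differences between the siRNAs were tested in a fit of all 6 libraries. Fold bounds used a floor of 3 counts in each si-ctrl library and cover counting error only. The scripts were tested on simulated data. Alternatives used DESeq2 1.42.0, limma 3.58.1, other size factors, minimums, pseudocounts and classes, a replicate block, and leaving out each library. Classing the transcripts without a biotype as coding or as noncoding was chosen after seeing the data.

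The 10 genes, the gene lists and the rule for named transcripts were chosen with earlier results of these data known. The rule names, for each gene, the most abundant coding and noncoding transcript, every called transcript, and any NMD transcript averaging 1 FPKM or more, and in each list up to 4 called genes with the largest log2 differences. SRSF11's most abundant transcript has no biotype and is named as a called transcript. The SRSF10 transcript called by DESeq2, the SRSF4 transcript of 206 bases, the SRSF5 transcript of 526 bases, UPF2 and ATF4 were named after their values were seen.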

Additional observations from a re-analysis of the deposited data

Results flagged for a closer look

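The values of si-PLANE.2 and si-PLANE.1 differed for all 10 SR gene totals, which is what brought them here. In a fit of all 6 libraries (edgeR, adjusted over all genes) 9 genes were higher with si-PLANE.2 than with si-PLANE.1 and SRSF11 was lower, where 64.4% of the 14440 genes tested were called. The log2 differences were 1.56 ± 0.12 for SRSF7, 1.45 ± 0.10 for SRSF9, 1.12 ± 0.12 for SRSF2, 0.80 ± 0.12 for SRSF1 and 0.76 ± 0.13 for SRSF3. They were 0.51 ± 0.12 for SRSF5, 0.47 ± 0.12 for SRSF4, 0.47 ± 0.15 for SRSF6, 0.32 ± 0.11 for SRSF10 and -0.42 ± 0.12 for SRSF11. The adjusted p ranged from 6.90e-06 for SRSF9 to 0.0281 for SRSF10.

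The ratio of noncoding to coding transcripts also differed between the siRNAs for all 10 genes, where 47.8% of the 8000 genes tested were called. It was lower with si-PLANE.2 for SRSF7 (-2.41 ± 0.22), SRSF1 (-1.80 ± 0.31), SRSF11 (-1.71 ± 0.30), SRSF5 (-1.56 ± 0.57), SRSF9 (-1.46 ± 0.24), SRSF10 (-1.44 ± 0.23), SRSF4 (-1.32 ± 0.37), SRSF3 (-1.22 ± 0.23) and SRSF2 (-0.87 ± 0.25). It was higher for SRSF6, at 1.19 ± 0.27. The adjusted p ranged from 1.53e-05 for SRSF7 to 0.0465 for SRSF5 (edgeR). The libraries of the siRNAs differed in histone mRNA content, as given above, and its part in these differences cannot be told apart from that of the siRNA.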

How the results depend on the processing

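Among the comparisons of SR genes, 3 counts of calls left the main value by over 1.5 times. DESeq2 called 1 SR transcript with si-PLANE.1, NMD transcripts alone gave 5 called ratios with si-PLANE.2, and the SR transcripts called with si-PLANE.2 ranged from 0 to 25 as single libraries were left out, 0 without either si-PLANE.2 library. The called SR gene totals with si-PLANE.2 ranged from 5 to 9 and the called ratios from 7 to 10 as single libraries were left out, and the counts of gene totals and ratios with si-PLANE.1 stayed at 0. Where 1 library was left in a group, it was assumed to vary like the other group.

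Values that changed sign were these. For gene totals with si-PLANE.2 on FPKM scales, with pseudocounts of 1 and 0.1, SRSF3 came to -0.17 and -0.17, SRSF4 to -0.35 and -0.36, and SRSF10 to -0.048 and -0.049; SRSF10 ranged from -0.0074 to 0.18 as libraries were left out. For gene totals with si-PLANE.1, SRSF5 came to 0.0023 with a minimum of 2 FPKM, and leaving out libraries gave -0.15 to 0.15 for SRSF5, -0.11 to 0.14 for SRSF11 and -0.45 to 0.0056 for SRSF6. For the ratio with si-PLANE.1, SRSF3 came to -0.020 and SRSF4 to 0.22 with NMD transcripts alone, SRSF2 to 0.26 with retained-intron transcripts alone, SRSF3 to -0.011 with voom, and SRSF11 to 0.22 with unclassified transcripts as coding. Leaving out libraries gave -0.64 to 1.28 for SRSF5, -0.28 to 0.27 for SRSF3, -0.48 to 0.52 for SRSF1, -0.11 to 0.48 for SRSF9, -0.65 to 0.039 for SRSF11, -0.35 to 0.40 for SRSF6 and -0.52 to 0.33 for SRSF2. For the ratio with si-PLANE.2, SRSF5 came to 7.96 with NMD transcripts alone and SRSF1 to 6.28 with retained-intron transcripts alone, both against si-ctrl counts near 0. With transcripts without a biotype as noncoding, SRSF4 lost its call at -1.57 (edgeR, adjusted p = 0.0536). The cause was not tested in the other cases.

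Only si-PLANE.1 has replicate numbers in common with si-ctrl, in 2 pairs, and deviations of same-numbered libraries correlated at 0.261 across 14535 genes. A replicate block called 1225 genes in place of 5, among them 6 of 13 NMD and exon junction factors and 2 of 6 NMD targets, but 0 SR gene totals, 0 ratios and 0 SR transcripts, and brought the SRSF3 ratio to -0.0066. For si-PLANE.2 no block was possible because it shares no number with si-ctrl. With 2 libraries per group and 10572151 counts in the shallowest library, the precision of each value is limited, and a missed threshold does not show that levels were equal.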
